A study of Mus musculus with 15 samples.

Results

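The cytosolic ribosome of the mouse is built from a large and a small subunit, and each of its proteins is encoded by a gene named Rpl (large) or Rps (small). All rows of the gene table whose name began with Rpl or Rps and a digit, or was Rpsa, Rplp0, Rplp1 or Rplp2, were taken, without pseudogenes (names with -ps) and without the kinases of the Rps6k family. This gave 88 of 17832 genes. They were 46 genes of large subunit proteins, 31 of small subunit proteins, 7 paralogs (Rpl3l, Rpl6l, Rpl7l1, Rpl22l1, Rpl32l, Rpl36al and Rps27l), 3 retrocopies (Rpl37rt, Rps23rg1 and Rps27rt) and Rps19bp1. The last of these encodes a nucleolar protein that binds Rps19 and is not a part of the ribosome, so the name rule took in 1 gene of another kind.

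Kidneys of male C57BLKS/J mice aged 22 weeks were profiled by mRNA sequencing in 3 groups of 5 libraries. Mice of the m/m genotype, the non-diabetic controls, and 1 group of db/db mice received vehicle (0.5% methylcellulose), and the other db/db group received dapagliflozin at 1 mg/kg in the same vehicle. The db/db mice lack the signalling leptin receptor in every cell from birth, so obesity, diabetes and loss of leptin signalling are shared by both db/db groups. Dapagliflozin inhibits the glucose transporter SGLT2 of the proximal tubule.

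Growing cells make the ribosomal proteins in nearly equal amounts, and many of their mRNAs begin with a run of the pyrimidines C and U, the terminal oligopyrimidine or TOP motif, through which the kinase complex mTORC1 controls their translation by way of the protein Larp1. In the kidney, mTORC1 signalling is known to rise in diabetes, and ribosome content is known to grow when tubules enlarge. The level of an mRNA does not show how much of it is translated.

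The DNA around the annotated start of these genes was searched for pyrimidine runs; whether a run found is a TOP motif was not tested. RefSeq promoter sequences (build GRCm38.p6) were matched by symbol for 67 of the 88 genes. A run of at least 8 bases, each C or T, on the strand of the gene and within 20 bases before to 30 bases after the annotated start, was found in 33 of the 67 (49.3%) and in 1835 of 10304 tested genes (17.8%). The median of the longest run was 7 bases against 5. The lines below give 30 bases each with the longest run of that window in capitals. Those of Rpl35, Rpl11, Rpl13a, Rpl28 and Rps6 are shown as examples of runs of at least 8 bases and are not the longest. Runs of 21, 20 and 17 bases at Rpl7a, Rpl27a and Rpl15 are not shown. Those of Rpsa, Rps2 and Rpl12 are shown because they had the 3 largest called rises in db/db kidneys.
Rpl35: agtcggccccgCCCTTTCCTCTTTCTCTCg
Rpl11: ggggccggaagTCTCCCTCTCTCTTCCTgt
Rpl13a: ctgcgacaagaCCTCCTCCTTTCCCaggcg
Rpl28: cgcctctcgtgTCTCTCTTTCCgtctccgg
Rps6: cggaagtcgggCCTCTTTTTCgtgacgcct
Rpsa: ccggccgcccgTCCTTTCgcgctacccggg
Rps2: gagatctcgcgCTTCTTggagcactataaa
Rpl12: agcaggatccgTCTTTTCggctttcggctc
They lie at chr2:39005120-39005149 (minus strand) for Rpl35, chr4:136053362-136053391 (minus) for Rpl11, chr7:45128725-45128754 (minus) for Rpl13a, chr7:4792951-4792980 (plus) for Rpl28, chr4:86857350-86857379 (minus) for Rps6, chr9:120127775-120127804 (plus) for Rpsa, chr17:24720056-24720085 (plus) for Rps2 and chr2:32961702-32961731 (plus) for Rpl12. Among the windows shown, the runs were 18 bases at Rpl35, 17 at Rpl11 and 14 at Rpl13a, and 7, 6 and 7 bases at Rpsa, Rps2 and Rpl12. A run marks letters near an annotated start and is not a measured start of the mRNA. Some runs lie away from that start: the run of Rpl11 begins 13 bases after it. The run of Rpl31, of 13 bases, begins 18 bases before it.

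The libraries fell into a high-read set (m/m 1 to 5 and db/db vehicle 1 to 3, 14.8 to 16.4 M reads in genes) and a low-read set (db/db vehicle 4 and 5 and all dapagliflozin libraries, 1.60 to 2.29 M). Genotype was therefore compared within the high-read set, and the drug within the low-read set, which share no library. Dapagliflozin 2 and 3 had read numbers that differed by less than sampling noise over all genes (chi-square per gene 0.724, against 1.20 to 2.61 for other low-read pairs except dapagliflozin 1 and 2 at 0.885) and were counted as 1 sample. Whether each library is a different animal is not stated by the labels, so the p-values speak of the spread among these libraries, and part of it may be technical. In the high-read libraries, kidney markers fitted the labelled tissue: Slc34a1 of the proximal tubule stood at 2512 and 1966 FPKM in m/m and db/db vehicle 1 to 3, and Umod of the thick ascending limb at 749.6 and 648. Markers of liver and skeletal muscle were also looked at, and some were higher in the low-read set. Between db/db vehicle 4 and 5 and db/db vehicle 1 to 3, 1 of 2 liver markers was called higher (median log2 fold change 2.50). The 1 tested skeletal muscle marker was also called higher (0.98), where 18.8% of all genes tested were. The reason was not tested.

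Ribosomal protein mRNAs made up a larger share of the reads in db/db than in m/m kidneys. The 88 genes held 1.14 to 1.28% of all reads in genes in the 5 m/m libraries (median 1.17%) and 1.46 to 1.57% in db/db vehicle 1 to 3. The median level of the 77 genes of the ribosome itself was 147 to 160.3 FPKM (fragments per kilobase, relative to the reads of each library) in the m/m libraries and 190 to 205 FPKM across db/db vehicle 1 to 3, with no overlap. In the low-read set the same median was 104 and 100.5 FPKM in db/db vehicle 4 and 5 and 87.4 to 103 FPKM under dapagliflozin. In a bulk sample, fewer cells of a type and less RNA per cell cannot be told apart.

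**Figure D1:**
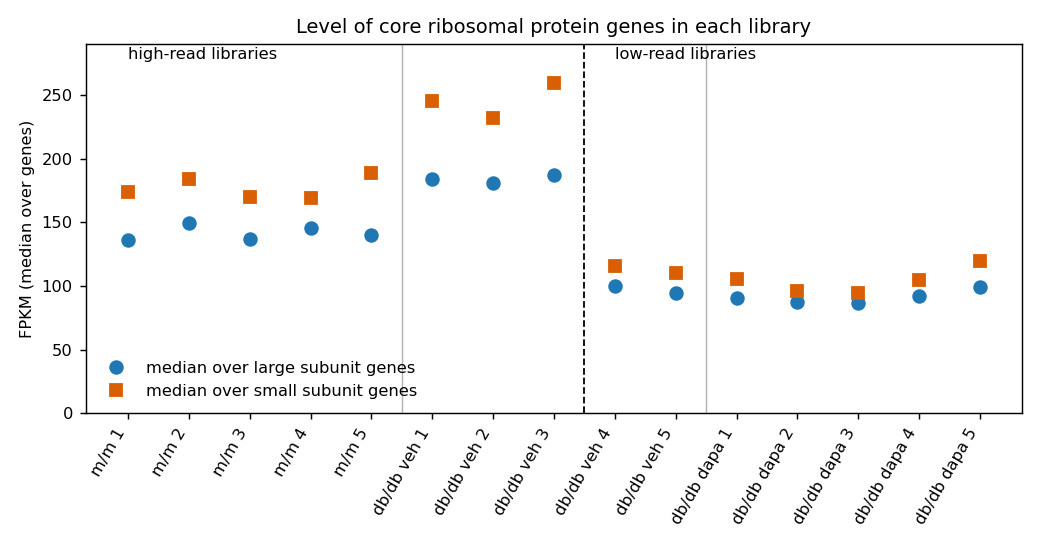
Median FPKM over the 46 large subunit genes (circles) and the 31 small subunit genes (squares) in each library; the dashed line parts the high-read from the low-read libraries, and grey lines part the groups. Both medians are higher in db/db vehicle 1 to 3 than in any m/m library, and the low-read libraries lie below all high-read ones whatever their group.

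In the comparison of db/db vehicle 1 to 3 with m/m 1 to 5, 65 of the 88 genes were higher and 1 was lower (limma on log2(FPKM + 1), called at an adjusted p under 0.05), against 29.5% higher and 8.31% lower among the 12869 genes tested. Their median log2 fold change was 0.36, and that of all genes tested was 0.16. Among 1326 other genes whose mean reached 50 FPKM, 26.1% were higher and 22.5% lower, with a median of 0.05. The 2 groups of libraries did not overlap for 73 of the 88 genes with db/db higher and for 1 with db/db lower, against 37.5% and 10.2% of all genes tested. In a fit of these 8 libraries alone, 73 genes were higher and 1 lower, where 40.7% and 10.6% of all genes were. All 88 genes passed the filter on low values.

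The size of the difference depended on scaling. Median-of-ratios scaling, which sets the typical gene equal in all libraries, brought the median of all genes from 0.16 to −0.00 and that of the ribosomal protein genes from 0.36 to 0.14. With scaling, 28 genes were higher, all of them among the 65, and 2 were lower (Rps23rg1 and Rpl15), where 11.6% of all genes were higher and 18% lower. Without scaling, FPKM are shares of a library's reads, and 1 gene took a very different share: Kap, an androgen-regulated protein of the proximal tubule, held 2.41 to 2.77% of reads in the m/m libraries and 0.0793 to 0.246% across db/db vehicle 1 to 3. Its part in the difference was not tested.

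**Figure D2:**
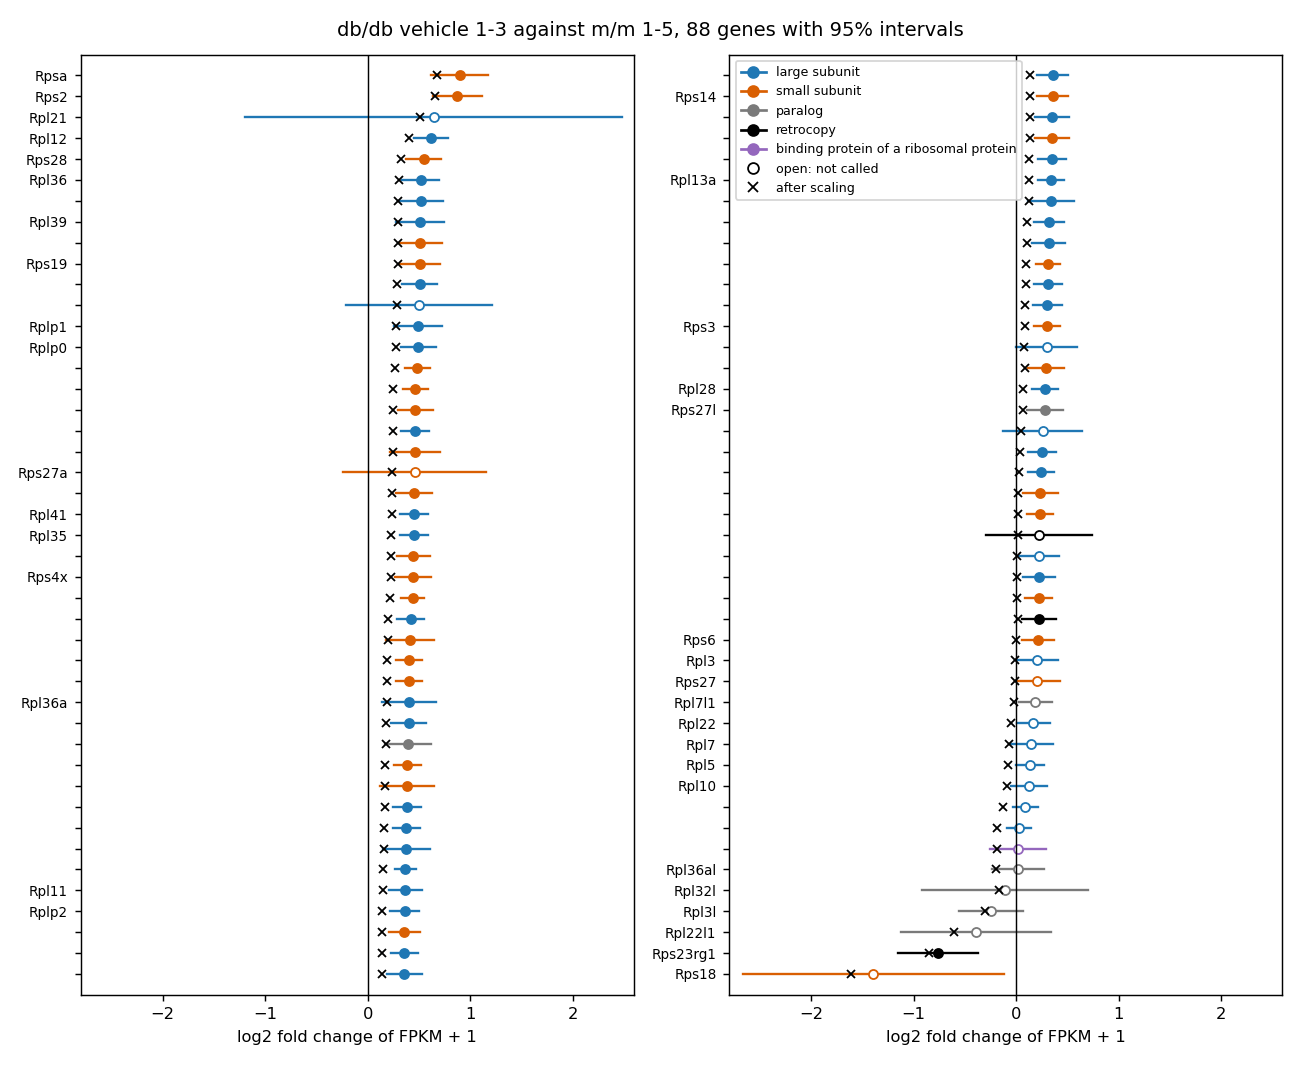
Log2 fold change of FPKM + 1 with its 95% interval for each of the 88 genes, db/db vehicle 1 to 3 against m/m 1 to 5, sorted from highest (top left) to lowest (bottom right) and coloured by role; the genes picked by the naming rule are labelled. Filled circles are called (65 higher, 1 lower) and crosses give the value after median-of-ratios scaling, which moves nearly every gene to the left by a similar amount.

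Among small subunit proteins, 28 of 31 genes rose and none fell, and 14 rose after scaling. Rpsa, which encodes a protein of the small subunit that also exists as a laminin receptor at the cell surface, stood at 63.4, 98.4, 67.5, 65.8 and 66.6 FPKM in m/m 1 to 5 and at 134, 121 and 147 FPKM in db/db vehicle 1 to 3. All db/db values lay above all m/m values, and m/m 2 was the highest of its group. Its mean went from 72.3 ± 14.6 (SD, n = 5) to 134 ± 13.2 (n = 3); ± is the SD over the libraries of a group throughout. On the log2 scale it rose by 0.90 (95% interval 0.62 to 1.18, limma adjusted p = 0.000192) and by 0.68 after scaling (adjusted p = 0.00167). Rps2, whose protein lies near the entry of the mRNA into the small subunit, stood at 242, 339.7, 228, 256 and 233 FPKM in m/m and at 455, 461 and 502 FPKM in db/db vehicle 1 to 3. Again m/m 2 was the highest control and the groups did not overlap. The log2 fold change of Rps2 was 0.88 (0.64 to 1.11, adjusted p = 5.88e-05) and 0.66 after scaling (adjusted p = 0.000415).

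Smaller rises were shared by most other small subunit genes. Rps28 rose by a log2 fold change of 0.55 (adjusted p = 0.000182 in limma), from 172 ± 6.87 to 252 ± 18.1 FPKM. Rps19, whose human gene is often mutated in Diamond-Blackfan anaemia, rose from 133 ± 8.33 to 189 ± 9.08 FPKM (log2 fold change 0.51, adjusted p = 0.000773; 0.29 after scaling, adjusted p = 0.00598). Rps4x, an X-linked small subunit gene, rose by 0.44 (adjusted p = 0.00116) and by 0.23 after scaling (adjusted p = 0.0183). Rps3, a protein at the mRNA entry channel, rose by 0.30 (adjusted p = 0.00149), and Rps14, whose human gene is lost in the 5q deletion syndrome, by 0.36 (adjusted p = 0.0017), but neither was called after scaling (0.08 and 0.14).

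Rps6, the substrate of the S6 kinases that act below mTORC1, differed little. It stood at 153, 160.3, 145, 161 and 155 FPKM in m/m and at 184, 168 and 188 FPKM in db/db vehicle 1 to 3, so that the groups did not overlap but db/db vehicle 2 lay close to m/m 4. Its log2 fold change was 0.22 (95% interval 0.06 to 0.37, limma adjusted p = 0.034) and −0.00 after scaling (adjusted p = 0.992). The call was lost without db/db vehicle 1 (adjusted p = 0.102), db/db vehicle 3 (0.132), m/m 1 (0.0623), m/m 3 (0.0744) or m/m 5 (0.0577).

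Among large subunit proteins, 34 of 46 genes rose and none fell, and 14 rose and 1 fell after scaling. Rpl12, at the base of the stalk that recruits elongation factors, had the largest called rise. It stood at 126, 146, 125, 135 and 127 FPKM in m/m and at 197, 198 and 212 FPKM in db/db vehicle 1 to 3, with no overlap. Its log2 fold change was 0.62 (0.45 to 0.78, limma adjusted p = 5.13e-05) and 0.40 after scaling (adjusted p = 0.000478). The stalk proteins themselves moved with it: Rplp0 rose by 0.49 (adjusted p = 0.000417), Rplp1 by 0.50 (adjusted p = 0.00336) and Rplp2 by 0.36 (adjusted p = 0.000794), of which Rplp0 (0.28) and Rplp1 (0.28) were also called after scaling and Rplp2 (0.14, adjusted p = 0.0781) was not.

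Rpl36 and Rpl38, small proteins of the large subunit, each had a log2 fold change of 0.52 (limma adjusted p = 0.000402 and 0.00169) and of 0.30 after scaling (adjusted p = 0.0106 and 0.0123). Rpl39, which lines the exit tunnel of the growing chain, rose by 0.51 (adjusted p = 0.00247) and by 0.30 after scaling (adjusted p = 0.0246). Rpl41, the most abundant of the 88 by mean FPKM in the high-read libraries, went from 580 ± 13.3 to 794 ± 34.8 FPKM, a log2 fold change of 0.45 (adjusted p = 0.00013). Rpl35, which carries the longest pyrimidine run shown above, also had a log2 fold change of 0.45 (adjusted p = 0.000144; 0.23 after scaling, adjusted p = 0.005).

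Rpl5 and Rpl11 bind 5S rRNA together and, when free of ribosomes, hold back the p53 inhibitor Mdm2. Rpl11 stood at 104, 108, 90.8, 95.1 and 97.3 FPKM in m/m and at 126, 129 and 128 FPKM in db/db vehicle 1 to 3. The log2 fold change of Rpl11 was 0.37 (limma adjusted p = 0.00196), and after scaling 0.15 (adjusted p = 0.07). Rpl5 went from 136 ± 7.68 to 150 ± 1.17 FPKM and did not pass the test (log2 fold change 0.14, 95% interval 0.00 to 0.27, adjusted p = 0.0978), except in the fit of these groups alone (0.0472) and with an equal sum in every library (0.0238). Rpl13a, known in human monocytes for silencing inflammatory mRNAs outside the ribosome, rose by 0.34 (adjusted p = 0.000803; 0.12 after scaling, adjusted p = 0.0724), and Rpl28 by 0.28 (adjusted p = 0.00235; 0.07 after scaling, adjusted p = 0.553).

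Several other large subunit genes did not pass the test. Rpl10, which joins the large subunit last, went from 331 ± 20.3 to 361 ± 24 FPKM, for which limma gave an adjusted p of 0.247 (log2 fold change 0.12, interval −0.05 to 0.30). Rpl7 and Rpl3, which forms part of the peptidyl transferase region, had log2 fold changes of 0.15 (adjusted p = 0.249) and 0.21 (adjusted p = 0.0936). The groups did not overlap for Rpl3, which passed in the fit of these groups alone (adjusted p = 0.0202), with an equal sum in every library (0.02), with the replicate block (0.0387) and without dapagliflozin 1 (0.0441). Rpl15 was the exception after scaling: its log2 fold change was 0.03 as deposited (adjusted p = 0.681) and −0.18 after scaling (adjusted p = 0.0279), named here after its values were seen.

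Of the 10 paralogs and retrocopies, 3 rose and 1 fell (median log2 fold change 0.10), and after scaling none rose. Rpl22l1, a paralog that Rpl22 is known to repress in the mouse, was the more abundant of that pair in m/m kidneys. It stood at 59.5, 68.7, 43.7, 65.5 and 61.2 FPKM in m/m and at 43.1, 53.4 and 38.9 FPKM in db/db vehicle 1 to 3, so that 1 db/db library lay within the range of m/m. Relative to Rpl22 its level was 125 to 171% in m/m (median 163%) and 92.0 to 130% in db/db vehicle 1 to 3 (median 96.3%). Neither gene passed the test: the log2 fold change was −0.39 for Rpl22l1 (95% interval −1.13 to 0.34, limma adjusted p = 0.385) and 0.17 for Rpl22 (adjusted p = 0.0959). Rpl22 was called in the fit of these groups alone (adjusted p = 0.0338) and with an equal sum in every library (0.0159), and Rpl22l1 was called lower in the fit of these groups with scaling among them (−0.59, adjusted p = 0.0135).

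Rpl36al, an intronless copy of Rpl36a, stood at 135 ± 6.13 and 137 ± 4.19 FPKM (log2 fold change 0.02, interval −0.24 to 0.27), while Rpl36a itself went from 95.6 ± 8.27 to 127 ± 8.22 FPKM (log2 fold change 0.40, limma adjusted p = 0.0195). The Rpl36a call was lost if db/db vehicle 1 was left out (0.36, adjusted p = 0.0785) and by scaling (0.19, adjusted p = 0.163). As a share of Rpl36a, Rpl36al was 132 to 154% in the m/m libraries and 97.6 to 117% across db/db vehicle 1 to 3, without overlap. Rps27l, a p53 target in human cells, rose by 0.28 (adjusted p = 0.0144) and Rps27 did not pass the test (0.21, adjusted p = 0.13). The Rps27l call was lost without dapagliflozin 2 (adjusted p = 0.0516), db/db vehicle 1 (0.0639) or db/db vehicle 3 (0.0639), and by scaling (0.07, adjusted p = 0.491).

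Rpl3l, a paralog used by heart and skeletal muscle in place of Rpl3, was at 0.694 ± 0.31 FPKM in the m/m libraries and 0.422 ± 0.18 across db/db vehicle 1 to 3, a fraction of a percent of Rpl3, and did not pass the test (log2 fold change −0.24, limma adjusted p = 0.206). Rpl7l1, a nucleolar relative of Rpl7, went from 25.9 ± 1.01 to 29.7 ± 0.265 FPKM (0.19, adjusted p = 0.0606); it passed without dapagliflozin 1 (adjusted p = 0.0176) or 4 (0.0374), with array weights (0.0168) and in the fit of these groups alone (0.00579). Of the paralogs Rpl10l, Rpl39l and Rps4l, none was analysed here.

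The only called decrease was that of Rps23rg1, a retrocopy of Rps23 found in the mouse. It stood at 2.02, 1.96, 1.93, 2.09 and 1.43 FPKM in m/m and at 1.24, 0.455 and 0.499 FPKM in db/db vehicle 1 to 3. Every db/db value lay below every m/m value, but these are low levels. The log2 fold change was −0.76 (95% interval −1.15 to −0.37, limma adjusted p = 0.00559) and −0.85 after scaling (adjusted p = 0.0059). Its parent gene Rps23 moved the other way, from 276 ± 20.7 to 361 ± 8.12 FPKM (0.39, adjusted p = 0.000367). Rps19bp1 stood at 15.3 ± 1.63 and 15.5 ± 1.34 FPKM (log2 fold change 0.02, adjusted p = 0.924).

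Ribosomal protein genes have many processed pseudogenes, and reads from near-identical copies can be counted at the wrong place. Of the 84 genes with a coding sequence in GENCODE (build GRCm38), 76 had at least 1 other annotated transcript of at least 95% identity over at least 80% of that sequence, up to 57 for Rpl21. Their single values are uncertain for this reason. Among the 8 genes with none were Rps3, Rps19 and Rpl41, and 6 of the 8 rose, against 58 of the 76. The median log2 fold change was 0.33 for 18 genes with 0 or 1 copy, 0.37 for 28 with 2 to 5 and 0.36 for 38 with 6 or more.

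By length and by pyrimidine run the differences were close to each other. The median log2 fold change was 0.38 for coding lengths under 400 bases, 0.36 for 400 up to 600 and 0.35 from 600 bases on. The 33 genes with a run of at least 8 C or T bases had a median of 0.31 (24 rose), and the 34 with a shorter run 0.37 (24 rose). These are descriptions without a test.

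Lists of other genes of protein synthesis were counted in the same comparison. Fau and Rack1, which encode ribosomal proteins under other names, rose, with log2 fold changes of 0.47 and 0.30 (limma adjusted p of 7.58e-05 and 0.0111), and Fau was also called after scaling (0.25, adjusted p = 0.00539). Of 8 elongation factor genes, 1 rose, Eef1b2 (0.27, adjusted p = 0.00507), and after scaling 0 rose and 1 fell. Of 34 initiation factor genes, 8 rose and 2 fell, with a median of 0.08; Eif6, which keeps free large subunits from joining, rose by 0.52 and the scaffold Eif4g3 was at −0.48, and after scaling 1 rose and 10 fell. Of 10 other mRNAs known to carry the TOP motif, 4 rose and 1 fell (median 0.04; 1 and 4 after scaling), among them Tpt1 at 0.22 and Nap1l1 at −0.56.

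Ribosome assembly and its control were counted likewise. Of 34 genes of ribosome assembly, 9 rose and 1 fell as deposited (median 0.17, close to the 0.16 of all genes), and after scaling 1 rose and 1 fell. Utp20, of the small subunit processome, rose from 7.06 ± 0.304 to 19.2 ± 3.4 FPKM, a log2 fold change of 1.31, and Nhp2, of the pseudouridylation complex, fell, with a log2 fold change of −0.64 (−0.84 after scaling). Of 11 tested genes listed for RNA polymerase I, which transcribes rRNA, 3 rose (Taf1c at 0.62, Taf1d at 0.77 and Rrn3 at 0.29). After scaling 2 rose and 1 fell, and the median went from 0.12 to −0.07. Of 26 genes of mTORC1 and TOP mRNA control, 10 rose and 3 fell as deposited and none rose and 7 fell after scaling; Mtor itself fell from 57.7 ± 5.65 to 31.6 ± 2.08 FPKM (−0.84; −1.06 after scaling). Of 10 genes of the MYC network 3 rose, including Myc at 0.67, from 2.36 ± 0.259 to 4.37 ± 0.783 FPKM, and after scaling 2 rose. Of 14 proteasome core genes, taken as an abundant complex of another kind, none rose and 1 fell (Psmb7, −0.19; median 0.01), and after scaling 9 fell.

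Cell type markers also differed between these groups. The summed level of 10 leukocyte markers was 66.7 to 107 FPKM in the m/m libraries and 111 to 292 FPKM across db/db vehicle 1 to 3, with no marker at 0 in a whole group, although 0 of 9 tested were called. The sum of 8 proximal tubule markers, most of it Kap, was 44127 to 49584 FPKM in the m/m libraries and 4596 to 8231 FPKM across db/db vehicle 1 to 3, and 5 of the 8 fell. Markers of other nephron cells rose: both of the distal convoluted tubule (Slc12a3 and Pvalb, median log2 fold change 0.80), both of principal cells (Aqp2 and Aqp3, 0.78), Nphs1 of podocytes (0.75) and 1 of 2 of intercalated cells (Atp6v1b1, 0.84), and each of these was also called after scaling. Neither of the 2 thick limb markers nor any of the 3 endothelial ones was called as deposited. After scaling, 1 of the 2 thick limb markers (median −0.23) and 2 of the 3 endothelial ones (median −0.28) were called lower, where 18% of all genes were. The part of cell composition in the ribosomal protein difference was not tested.

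Under dapagliflozin most ribosomal protein genes had values close to those of vehicle-treated db/db kidneys. In the low-read set, 1 of 88 genes was higher and none was lower than in db/db vehicle 4 and 5, where 0.132% of all genes tested were higher and 0.148% lower. After scaling 2 were higher, where 0.148% of all genes were higher and 0.132% lower. The median log2 fold change of the 88 genes was −0.02, the same as for all genes tested (−0.02). At an unadjusted p under 0.05, 11 of 88 genes and 1632 of 12869 were counted. With dapagliflozin 2 and 3 averaged, groups did not overlap for 5 genes with dapagliflozin higher and 7 lower, 5.68% and 7.95% of the 88, against 7.13% and 8.31% of all genes.

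The intervals give the size of drug difference left possible by the fit in which all 14 samples share 1 estimate of the spread. High-read libraries enter that spread, so the intervals are not those of the low-read libraries alone. When only the low-read libraries were fitted, 7 of 88 genes and 737 of 12869 had an unadjusted limma p under 0.05. The median half-width of the 95% interval was 0.20 on the log2 scale, and for 69 of the 88 genes the whole interval lay within −0.5 to 0.5. The share of reads in the 88 genes was 0.929 and 0.984% in the vehicle libraries and 0.889 to 0.992% under dapagliflozin. Rpl41 had a log2 fold change of −0.00 (95% interval −0.16 to 0.16), Rps6 of 0.04 (−0.15 to 0.23), Rps3 of 0.00 (−0.15 to 0.15), Rplp0 of −0.02 (−0.22 to 0.18) and Rpsa of −0.19 (−0.53 to 0.14). The summed leukocyte markers were 28.9 and 457 FPKM in the vehicle libraries and 38.8 to 449 FPKM under dapagliflozin, and their part was not tested.

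The 1 called gene was Rpl6l, a copy of Rpl6, at 0.532 and 0.560 FPKM in vehicle and at 1.70, 1.90, 2.64, 1.60 and 2.31 FPKM under dapagliflozin. All dapagliflozin values were higher, but they rest on 1 read in each vehicle library and 3 to 5 reads in each dapagliflozin library. Its log2 fold change was 0.93 (limma adjusted p = 0.0166), and the call was lost without db/db vehicle 4 (adjusted p = 0.0862) or 5 (0.0841), or when only the low-read libraries were fitted (0.854). Rps15a, a small subunit protein, had 2.15 and 1.96 FPKM in vehicle and 2.56 to 3.49 FPKM under dapagliflozin, a log2 fold change of 0.42. It was called after scaling over all libraries (0.44, adjusted p = 0.041). With scaling within each library set, 0 of 31 small subunit genes were called. When only the libraries compared were fitted, no ribosomal protein gene was called, against 0% higher and 0.00777% lower of all genes.

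Some genes that were not called had separate groups. Rpl32 had a log2 fold change of −0.31 (95% interval −0.51 to −0.10), from 168 ± 5.4 to 136 FPKM, Rps25 of −0.29 (−0.44 to −0.14) and Rpl30 of −0.27 (−0.43 to −0.11), all 3 lower in every dapagliflozin library, and none passed the adjusted threshold in limma. None of the other lists held a called gene except mTORC1 control, where Eif4ebp3, an inhibitor of translation initiation, fell from 11 ± 0.722 to 5.13 ± 1.25 FPKM (log2 fold change −0.99, adjusted p = 0.033).

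**Figure D3:**
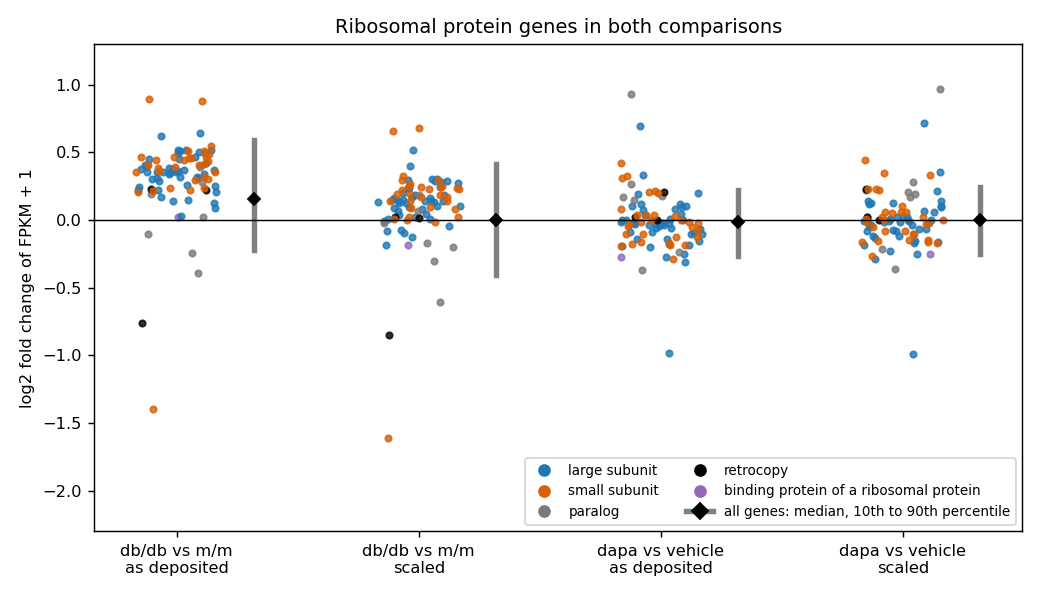
Log2 fold change of FPKM + 1 of the 88 genes (points, coloured by role) in both comparisons, as deposited and after median-of-ratios scaling; the diamond and bar give the median and the 10th to 90th percentile of all 12869 genes. The genes sit above the median of all genes in db/db against m/m (0.36 against 0.16 as deposited, 0.14 against −0.00 scaled) and around 0 under dapagliflozin.

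A few genes were uneven within groups. Rpl21 stood at 0.566, 0.755, 0.739, 10.3 and 0.590 FPKM in m/m 1 to 5, at 1.09, 12.9 and 0.908 in db/db vehicle 1 to 3, at 12.5 and 7.99 in db/db vehicle 4 and 5, and at 0.288, 0.322, 8.40, 11.7 and 9.90 under dapagliflozin 1 to 5. High and low values occur in the same group, in every group except db/db vehicle 4 and 5. No comparison of Rpl21 passed the test (limma adjusted p = 0.582 for genotype), and its genotype value of 0.64 turned to −0.29 without db/db vehicle 2 and was 1.20 without m/m 4.

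Rps18, a small subunit protein close to the decoding site, stood at 121, 142, 123, 29.7 and 229 FPKM in m/m, at 41.0, 43.0 and 37.4 in db/db vehicle 1 to 3, at 23.8 and 60.8 in db/db vehicle 4 and 5, and at 122, 94.6, 25.0, 28.4 and 25.5 under dapagliflozin. In m/m, library 4 lay below all 3 db/db libraries and the other 4 lay above them. Its log2 fold change for genotype was −1.39 (95% interval −2.67 to −0.12, limma adjusted p = 0.0799), and −1.85 without m/m 4 (adjusted p = 0.00957). With all libraries kept, Rps18 was called lower with array weights (adjusted p = 0.0391) and with the replicate block (0.017; 0.0142 with scaling). It was also called in the fit of these groups with scaling among them (0.0451), but not with scaling over all libraries (−1.61, adjusted p = 0.0622). Rps27a, which encodes ubiquitin fused to a small subunit protein, ranged from 61.1 to 122 FPKM in m/m and from 70.3 to 156 in db/db vehicle 1 to 3 (0.46, adjusted p = 0.284).

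**Figure D4:**
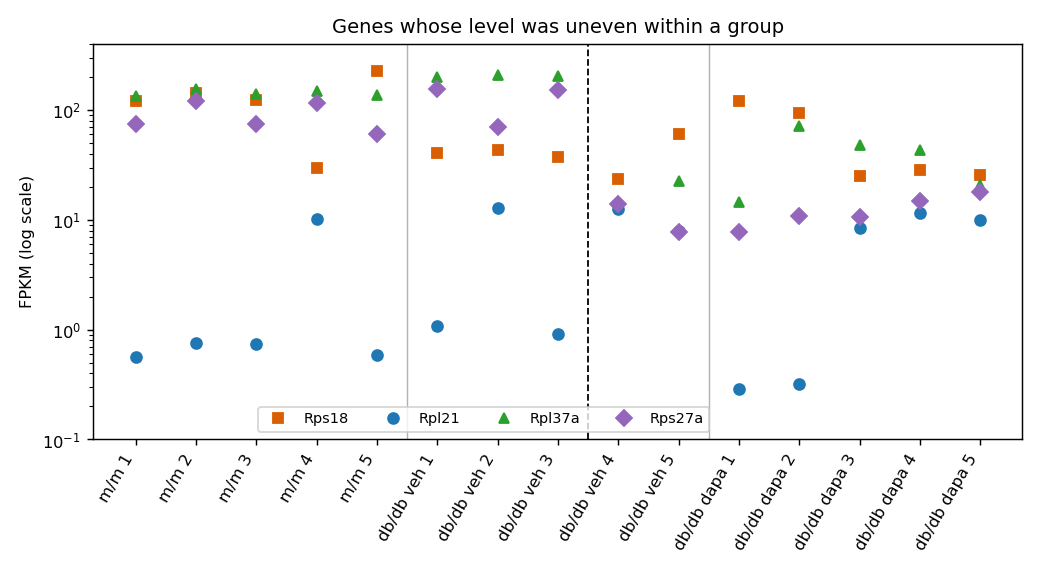
FPKM on a log axis of Rps18, Rpl21, Rpl37a and Rps27a in each library; the dashed line parts the high-read from the low-read libraries and grey lines part the groups. Rpl21 takes a level near 1 or near 10 in libraries of the same group, and Rps18 is low in m/m 4 and high in dapagliflozin 1 and 2.

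Dapagliflozin 2 and 3, counted as 1 sample, differed at such genes. They held 1 and 25 reads at Rpl21 and 87 and 22 reads at Rps18 (exact binomial test adjusted over the 88 genes, p = 1.15e-05 and 8.38e-08). Dapagliflozin 1 and 2, kept as separate samples, held 16 and 71 reads at Rpl37a (the same exact test, p = 4.07e-09). The other 86 genes did not pass this test for 2 and 3, and the other 87 did not for 1 and 2. Reads carry no molecular identifiers, so these tests cover counting error only.

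The same group in the other library set gave very different values, which is why levels are not compared across sets. Between db/db vehicle 4 and 5 and db/db vehicle 1 to 3, 9 of the 88 genes were higher and 72 lower, against 18.8% and 42.3% of all genes (11 and 73 without overlap, against 22.6% and 49%), with a median of −1.08 against −0.25 (−0.79 for the 88 genes after scaling). Rps27rt, a retrocopy of Rps27, had 85 to 114 reads and 14.5 to 20.5 FPKM in the high-read libraries and no read in any of the 7 low-read libraries, where 3 reads would be 3.51 to 5.004 FPKM. Rps23rg1 went the other way, from 0.455 to 1.24 FPKM in db/db vehicle 1 to 3 to 22.6 and 32.7 FPKM in db/db vehicle 4 and 5, a log2 fold change of 4.05.

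Genes with short coding sequences were lower in the low-read set than longer ones. The median log2 fold change was −1.54 for 28 genes under 400 bases, −0.72 for 31 of 400 up to 600 and −0.68 for 25 of 600 or more (Spearman's rho 0.40 across 84 genes, which are not replicates and share the libraries). Rpl37a (−3.42), Rps27a (−3.39) and Rpl39 (−3.28) fell most among genes of the ribosome, and Rpl18 (1.12), Rpl11 (0.90) and Rpl35 (0.75) rose most among called ones. The paralog shares changed too: Rpl22l1 was 125 to 171% of Rpl22 in m/m and 4.32 to 27.1% in the low-read libraries. The labels do not name the library sets, and what sets them apart was not tested.

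**Figure D5:**
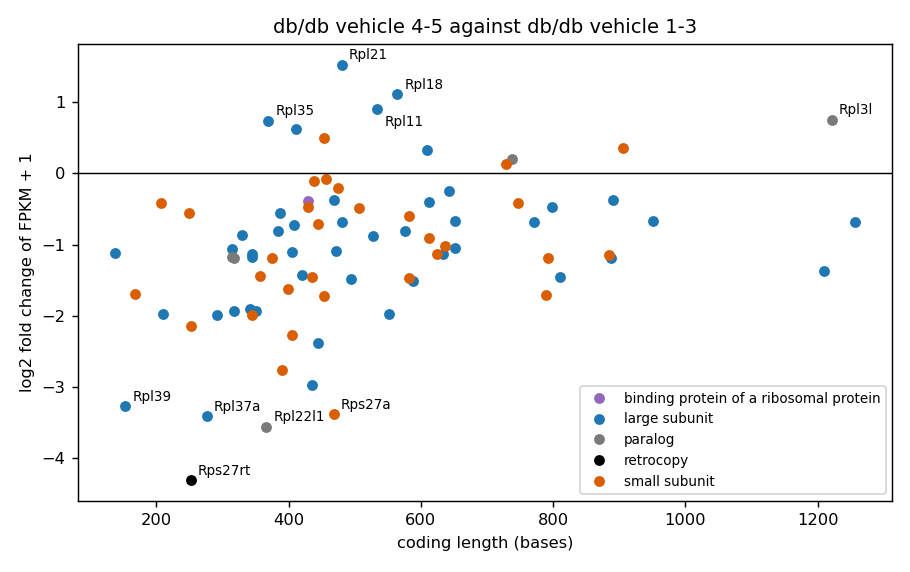
Log2 fold change of FPKM + 1 between db/db vehicle 4 and 5 and db/db vehicle 1 to 3, the same group in the low-read and the high-read set, against coding length for 84 genes coloured by role. Most points lie below 0, with a median of −1.54 under 400 bases and of −0.68 from 600 bases upwards.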

How the data were processed

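Libraries were made from kidney RNA with a strand-specific kit for mRNA, as the labels' protocols state. The FPKM values used are those the authors deposited per gene for 15 libraries. Trimmomatic, HISAT2, HTSeq and Cufflinks with build GRCm39 are named in the submitters' processing notes; versions and the strand setting: not given in the sources used here. FPKM were whole multiples of the value of 1 read (100% of values at a relative tolerance of 1e-08), which gave reads per library of 1.60 to 16.4 M; no count model was used.

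Limma (3.58.1, R 4.3.3) with an intensity trend was fitted to log2(FPKM + 1) of 12869 genes whose mean reached 0.5 FPKM, with means for m/m 1 to 5, db/db vehicle 1 to 3, db/db vehicle 4 and 5, and dapagliflozin (2 and 3 averaged), 14 samples in all that share 1 estimate of the spread. Tests were 2-sided with Benjamini-Hochberg adjustment over all genes. Fold changes on this scale understate those of low genes. Read recovery and limma were tested on simulated data. Copies were found with BLAST 2.17.0. Genes named are, per comparison, the 6 largest and 6 smallest changes, the 6 members of highest mean FPKM, 8 paralog pairs, calls against the main direction and 12 members set by name (Rpsa, Rplp0, Rplp1, Rplp2, Rpl5, Rpl11, Rpl13a, Rps3, Rps6, Rps14, Rps19 and Rps27a), and per list the 2 calls of smallest adjusted p; Rpl15, Rps15a, Rps23, Tpt1, Rrn3 and others outside this rule were named after their values were seen. The members and lists were chosen with earlier results of these data known. Results of some genes are not reported here. Alternatives covered scaling, filters, the pseudocount, array weights, the replicate block, the groups fitted and each library left out.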

Additional observations from a re-analysis of the deposited data

Results flagged for a closer look

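A few values stood apart from the other samples of their group, by the gap to the nearest sample as a share of the group's range. All were m/m libraries, the only group with 5 samples once dapagliflozin 2 and 3 were averaged. The flags therefore do not show that m/m was more uneven than the other groups. Rpl21 was 10.3 FPKM in m/m 4 and 0.566 to 0.755 in the others. In m/m 2, Rps2 was 339.7 FPKM (228 to 256 in the others), Rpsa 98.4 (63.4 to 67.5) and Rpl32 295.6 (238 to 246). Rpl32l was 1.10 FPKM in m/m 3 (0.313 to 0.430 in the others), a level of 3 to 10 reads. Rps23rg1 was 1.43 FPKM in m/m 5 (1.93 to 2.09 in the others). In 86 groups looked at, 6 were flagged in this way, and chance flags about 1 in 20 groups. Without m/m 2, the log2 fold changes of Rpsa and Rps2 in db/db were 1.01 and 0.98.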

How the results depend on the processing

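For db/db against m/m, 65 genes were higher and 1 lower with a median of 0.36. Median-of-ratios scaling over all libraries gave 28 and 2 (median 0.14) and within each set 29 and 2 (0.15); among the groups compared only, it gave 44 higher, 5 lower and a median of 0.15. Of all genes tested, 12.7% were higher and 18% lower with scaling within each set, and 19% and 23.4% with scaling among the groups compared. An equal sum in every library gave a median of 0.43 (0.21 for all genes), and array weights 2 lower (10.5% of all genes). Pooling both library sets gave 12 higher (13.6% of the 88), 0 lower and a median of −0.1. Among all genes tested, pooling gave 16.3% higher, 8.34% lower and a median of 0.10, so the ribosomal protein genes were not called higher more often. Leaving out each library gave 54 (without db/db vehicle 3) to 68 higher and 1 to 2 lower, with the shares of all genes not given here. Leaving out the pooled fit, 16 genes were called higher in each of 30 settings, among them Rpl12, Rpl36, Rpl38, Rpl41, Rplp1, Rps2, Rps19, Rps28 and Rpsa.
For dapagliflozin, 1 gene was higher; it was 2 under median-of-ratios scaling, quantile normalization or no filter, 0 in the fit of the groups compared, with or without scaling, and with array weights, and 0 to 2 with each library left out. Pooling gave 0 higher, 4 lower (4.55% of the 88) and a median of −0.63, against 1.36% higher, 5.25% lower and a median of −0.16 for all genes. Between the library sets the median was −0.79 with scaling over all libraries, −0.97 within sets, −0.81 among the groups compared and −1.13 to −0.96 with each library left out.
Deviations of same-numbered samples correlated at 0.381, 0.0538 and −0.00823 in the high-read set and at −0.117 and −0.765 in the low-read set, and the labels tie no number to a shared animal or batch, so the numbers were not taken as pairs. In the high-read set 4 of 6 samples correlated best with their own number, a hint of pairing in the data. With the replicate number as a block, 63 genes were higher and 2 lower in db/db (median 0.38), against 23.9% and 6.64% of all genes. That fit gave 0 higher under dapagliflozin. The block with median-of-ratios scaling gave 16 higher, 2 lower, medians of 0.14 and, between library sets, −0.75, and 0 higher under dapagliflozin. The shares of all genes called in that fit are not given here, so these counts do not set the 88 genes against other genes.
Signs turned for Rps6 (−0.00) with scaling over all libraries, for Rpl36al (−0.19) with scaling among the groups compared, for Rpl10 between library sets with these scalings (0.04 and 0.02), and on pooling for Rpl36a (−0.37), Rpl39 (−0.8), Rplp1 (−0.27), Rplp2 (−0.11), Rps23rg1 (0.86), Rps27l (−0.19), Rps4x (−0.24) and Rpl6l (−1.61). The causes were not tested. Averaging dapagliflozin 1 to 3, and scaling together with the block or with the fit of the groups compared, were chosen after seeing the data. Of the remaining single-gene values, 3086 stayed on their side of the threshold, 89 lost a call and 44 gained one. Low-read depth limits the dapagliflozin comparison.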
